A study of Mus musculus with 20 samples.

Results

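Skeletal muscle genes were followed through 20 SSM3 mammary tumours, 5 in each of 4 treatment groups. The set held 37 genes for the contractile filaments, the calcium machinery and the energy supply of skeletal muscle, and each was listed by name. All 37 had a value above 0 in at least 1 tumour, of 38930 named genes that did. A gene was represented by its transcript with the highest total over the 20 libraries. By role, 10 belonged to the thick filament, 8 to the thin filament and its troponins, 7 to the Z disc, titin and desmin, 6 to excitation-contraction coupling and calcium, and 6 to energy supply and oxygen storage.

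SSM3 is an oestrogen receptor-positive mouse mammary tumour line. Its cells were placed in the fourth inguinal mammary gland of immunocompetent 129S6/SvEv mice 2 to 4 months old, and tumours were allowed to grow to about 150 mm3. The vehicle group had sham surgery and 25 days of daily subcutaneous 5% ethanol in saline. The anti-PD-1 group had the same plus 250 µg of antibody against the checkpoint receptor PD-1, by intraperitoneal injection on days 3, 5 and 7 after surgery. The letrozole group was ovariectomised and received 1 mg/kg of letrozole, an inhibitor of oestrogen synthesis, in the same solution and on the same schedule. The letrozole + anti-PD-1 group received the surgery, the drug and the antibody. The surgery and the drug were never given separately, so their effects cannot be told apart and "letrozole" stands for both. Every mouse carried the SSM3 graft and had surgery of one kind or the other. The labels give the tissue as mammary and describe the 5 samples of each treatment as biological replicates. Tumours are named below by group and replicate number.

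Skeletal muscle fibres are single large cells packed with sarcomeres, in which myosin thick filaments pull on actin thin filaments anchored at Z discs. A nerve impulse opens calcium channels of the internal store, calcium binds troponin, and the filaments slide until a pump returns the calcium. Fibres differ in the myosin heavy chain they use: Myh7 marks slow fibres, Myh2 the fast oxidative IIa type, Myh1 the IIx type and Myh4 the fastest, IIb, type. The inguinal mammary gland lies in a fat pad beneath the skin, next to the muscles of the abdominal wall and thigh.

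The promoters of 5 members are shown because these genes recur in the results: the 3 fast heavy chains, whose proportions differed between tumours, and the filament and energy genes Acta1 and Ckm. Each run is the 250 bases upstream of the RefSeq transcription start on GRCm38.p6, written 5′ to 3′ along the gene. Capitals mark E-boxes (CANNTG, the core bound by myogenic bHLH factors), the TATAAA box, the MEF2 site and the CArG box that binds serum response factor.
Myh1 (chr11:67199852-67200101, plus strand): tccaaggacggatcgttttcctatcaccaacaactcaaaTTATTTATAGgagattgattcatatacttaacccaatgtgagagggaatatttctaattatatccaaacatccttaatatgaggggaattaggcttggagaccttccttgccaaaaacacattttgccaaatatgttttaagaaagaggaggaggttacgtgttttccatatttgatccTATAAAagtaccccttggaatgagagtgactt
Myh2 (chr11:67170777-67171026, plus strand): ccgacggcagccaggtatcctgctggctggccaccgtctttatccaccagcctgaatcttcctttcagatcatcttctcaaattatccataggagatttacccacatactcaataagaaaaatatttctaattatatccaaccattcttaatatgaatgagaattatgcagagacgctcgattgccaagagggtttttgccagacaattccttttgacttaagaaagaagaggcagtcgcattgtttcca
Myh4 (chr11:67237562-67237811, plus strand): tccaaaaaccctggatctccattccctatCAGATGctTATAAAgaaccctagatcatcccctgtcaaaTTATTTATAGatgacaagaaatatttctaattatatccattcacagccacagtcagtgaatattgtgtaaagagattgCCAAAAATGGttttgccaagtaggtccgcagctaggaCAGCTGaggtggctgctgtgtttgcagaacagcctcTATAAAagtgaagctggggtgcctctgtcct
Acta1 (chr8:123894776-123895025, minus strand): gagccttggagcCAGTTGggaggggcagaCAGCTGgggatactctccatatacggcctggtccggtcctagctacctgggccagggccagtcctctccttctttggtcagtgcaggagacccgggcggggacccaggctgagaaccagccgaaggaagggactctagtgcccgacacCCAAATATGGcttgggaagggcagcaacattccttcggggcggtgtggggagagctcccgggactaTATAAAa
Ckm (chr7:19410844-19411093, plus strand): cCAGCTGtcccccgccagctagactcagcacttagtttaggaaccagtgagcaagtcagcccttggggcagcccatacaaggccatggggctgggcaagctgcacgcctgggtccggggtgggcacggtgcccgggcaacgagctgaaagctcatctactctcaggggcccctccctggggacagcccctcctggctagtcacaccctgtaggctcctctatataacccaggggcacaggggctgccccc

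RefSeq's table held a promoter for 29 of the 37 members. On either strand, CAGCTG, the E-box form preferred by myogenic factors, occurred in 14 of them (48.3%), against 12.8% of all 27025 promoters in the table. Any E-box CANNTG, of which CAGCTG is one form, occurred in 82.8% of member promoters and 66.0% of all. A MEF2 site occurred in 5 (17.2% against 3.01%), a CArG box in 2 (6.9% against 1.4%) and TATAAA in 5 (17.2% against 13%). MEF2 sites and TATAAA can overlap. Of the promoters printed above, that of Myh4 held all of these motifs, that of Myh1 held a MEF2 site and TATAAA without an E-box, and that of Myh2 held none of them. These matches describe letters in a window and were not tested for occupancy.

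Values are normalised counts, that is, read counts divided by a size factor for each library. Recovered depth, over the 1 transcript kept for each named gene, ran from 12454194 to 31297742 reads. In normalised counts 1 read was worth 0.684 to 2.12, so a value below 2.05 to 6.35, depending on the library, rests on fewer than 3 reads. A value of 0 therefore allows a true level up to that limit, which covers counting error only. Anti-PD-1 1 had the fewest reads, and with vehicle 3 it stood apart from the other libraries over all genes, so results are also given without those 2. The mean of 12 luminal epithelial genes, as log2(normalised count + 1), ran from 12.83 to 13.23 over the tumours. Of these, 11 had enough counts to be tested. One of them, Pgr, was lower in letrozole against vehicle at an adjusted p under 0.05 by limma, against 0.958% of all tested genes called. In letrozole + anti-PD-1 against anti-PD-1, Epcam and Pgr passed, 1 higher and 1 lower, against 1.07%. For letrozole averaged over both antibody arms, Epcam, Gata3, Pgr and Prlr passed, 3 higher and 1 lower, against 7%. The luminal keratin Krt8 was high in every tumour, from 40514 to 75222.

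**Figure D1:**
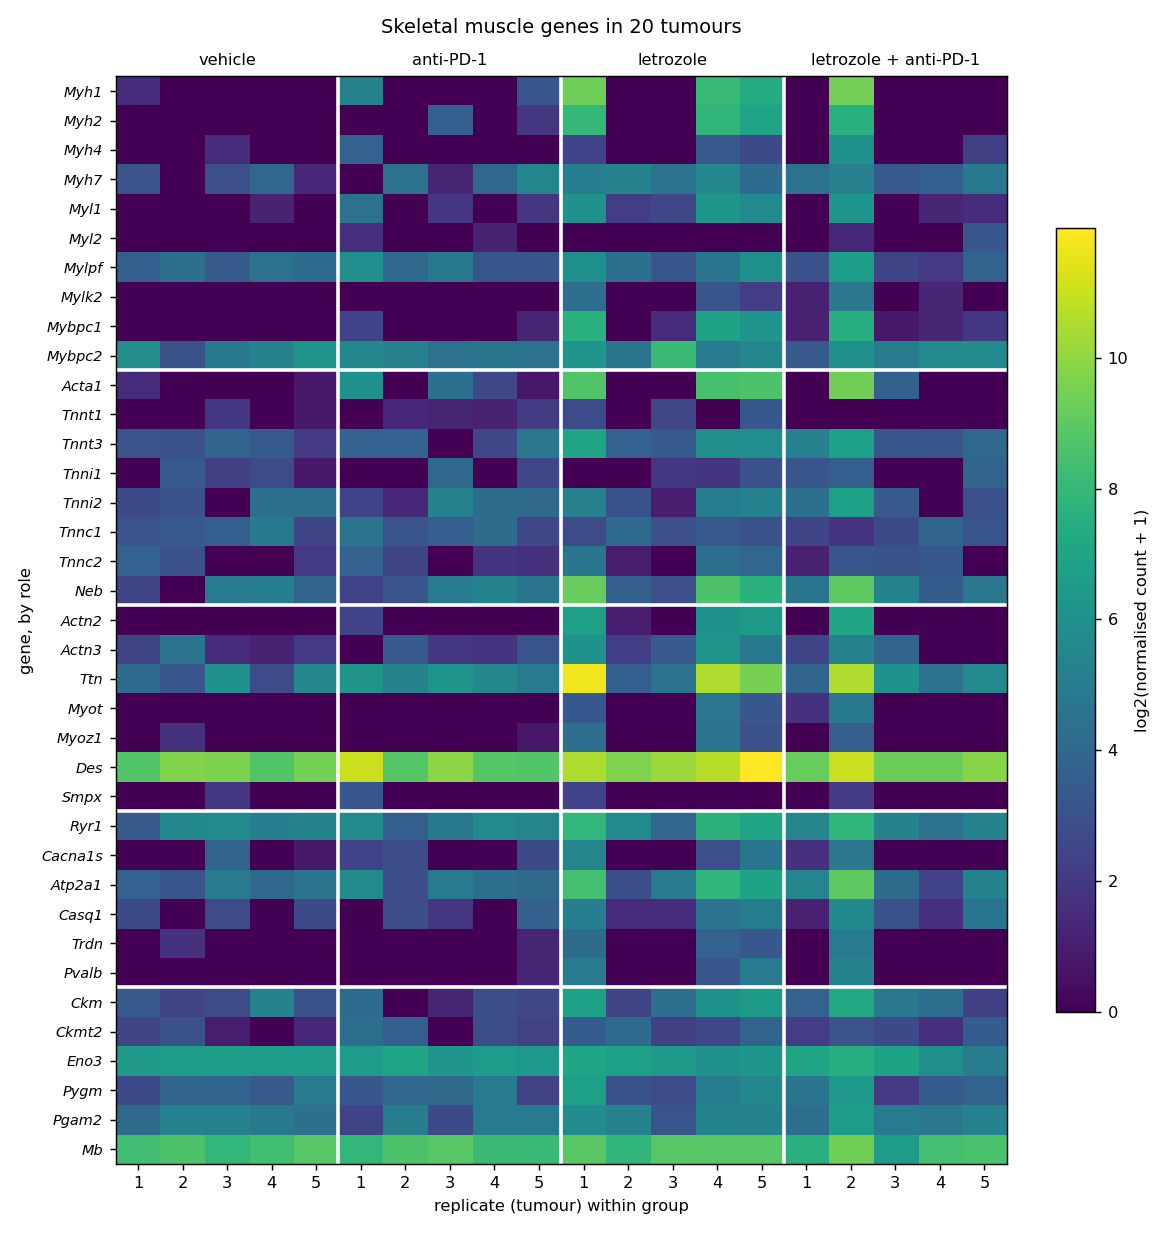
Levels of the 37 skeletal muscle genes in 20 tumours. Columns are tumours by group and replicate, rows are genes by role with white lines between roles, and the colour is log2(normalised count + 1). Letrozole 1, 4 and 5 and letrozole + anti-PD-1 2 are bright through most rows, while Des, Mb and Eno3 are present in every column.

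Muscle transcripts were concentrated in 4 of the 20 tumours. Summed over the 35 members other than Des and Mb, which were high everywhere, the level was 7299 in letrozole 1, 4100 in letrozole 4, 2761 in letrozole 5 and 6025 in letrozole + anti-PD-1 2. In letrozole 2 and 3 it was 388 and 555, and in the other letrozole + anti-PD-1 tumours 282 to 462. The vehicle tumours held 291, 315, 435, 397 and 413, and the anti-PD-1 tumours 639.6, 379.9, 414, 422 and 415. The highest 3 letrozole tumours lay above all sham-operated ones, the remaining pair lay within the range of those, and only 1 of 5 letrozole + anti-PD-1 tumours was high. The group means ± SD (n = 5) were 370.5 ± 63.3 for vehicle, 454 ± 105 for anti-PD-1, 3021 ± 2852 for letrozole and 1526 ± 2516 for letrozole + anti-PD-1.

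All 37 members together made up 0.043%, 0.0277%, 0.0334% and 0.0401% of normalised counts in letrozole 1, 4 and 5 and letrozole + anti-PD-1 2, and 0.00444% to 0.0112% in the other 16 tumours. These shares are of the counts on the 1 transcript kept for each named gene, not of the whole library. Those 4 tumours were also the 4 highest for 20 of the 37 members taken one by one. The same held for 36 of 19840 tested genes (0.181%). These 36 include tested members, whereas the 20 also include members that were not tested, such as Mybpc1. Testing required a value of 10 in at least 5 libraries, which leaves out genes confined to 4 tumours. The 2 shares are therefore not like for like. The 4 tumours were picked out by their muscle levels, so the count of 20 describes how far the members moved together and carries no test. Only 1 to 3 members were at 0 in those tumours, against 6 to 18 in each of the others. In bulk tissue, more muscle fibres in a sample and more muscle RNA per cell cannot be told apart.

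**Figure D2:**
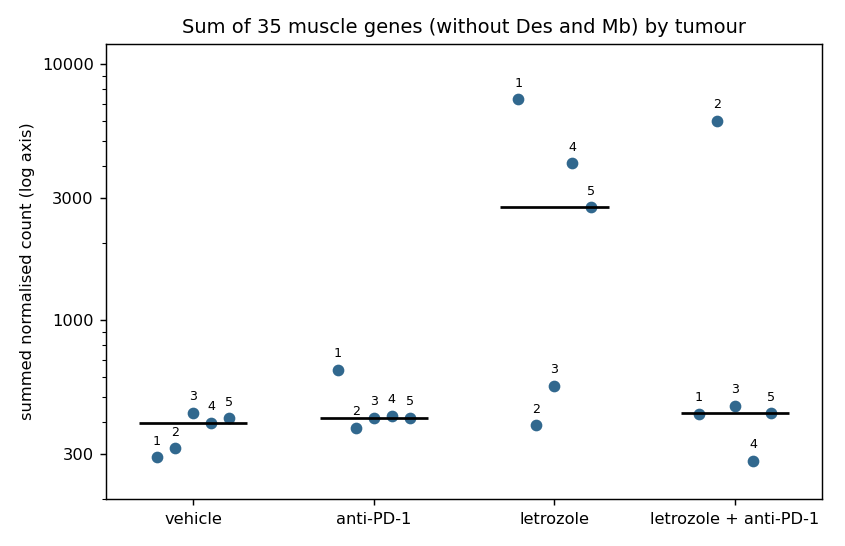
Summed normalised count of 35 skeletal muscle genes in each tumour, on a log axis. Points are tumours with their replicate number, 5 per group, and bars are group medians. Letrozole 1, 4 and 5 and letrozole + anti-PD-1 2 lie between 2761 and 7299, and the other 16 tumours between 282 and 639.6.

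The thick filament was represented mainly by the IIx and IIa heavy chains. Myh1, the IIx myosin, measured 1.83, 0, 0, 0 and 0 in vehicle tumours 1 to 5, 38.1, 0, 0, 0 and 8.203 in the anti-PD-1 tumours, 652, 0, 0, 272 and 167 in the letrozole tumours and 0, 708, 0, 0 and 0 in the letrozole + anti-PD-1 tumours. Letrozole 1, 4 and 5 and letrozole + anti-PD-1 2 held at least 167, anti-PD-1 1 held 38.1, and the others were at or near 0. Myh2, the IIa myosin, measured 247 in letrozole 1, 229 in letrozole 4, 129 in letrozole 5 and 193 in letrozole + anti-PD-1 2, against 0 to 11.04 in the others. Myh4, the IIb myosin, reached 65.8 in letrozole + anti-PD-1 2 and 12.7 in anti-PD-1 1. It was 4.39, 9.16 and 5.18 in letrozole 1, 4 and 5, which rest on 6, 11 and 6 reads.

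The slow heavy chain Myh7 followed another order. It measured 7.33, 0, 6.55, 14.3 and 1.58 in vehicle tumours 1 to 5, 0, 21.7, 1.38, 15.03 and 44.4 in the anti-PD-1 tumours, 34.4, 39.7, 22.99, 45.8 and 17.3 in the letrozole tumours and 20.9, 36.2, 9.28, 10.9 and 27.4 in the letrozole + anti-PD-1 tumours. All 5 letrozole tumours lay above all 5 vehicle tumours, but letrozole 2, with few other muscle transcripts, was above letrozole 1, and anti-PD-1 5 had the highest value but one. Of its exon bases 18.4% overlap genes on the opposite strand, among them Mhrt, and 15.5% of its 75-base stretches also occur in the cardiac gene Myh6. No source used here says whether counting used strand.

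Between the 4 tumours rich in muscle transcripts, the mixture of heavy chains differed. Per kilobase of transcript, Myh1 stood at 109.8 against 41.1 for Myh2 in letrozole 1 and at 119.2 against 32.0 in letrozole + anti-PD-1 2. It stood at 45.9 against 38.1 in letrozole 4 and 28.1 against 21.4 in letrozole 5. Of the reads on both genes, Myh1 thus took 72.5% (Wilson 95% interval 70.0 to 74.9) and 78.6% (76.1 to 80.9) in the first pair, and 54.3% (50.3 to 58.3) and 56.4% (51.1 to 61.6) in the second. The intervals of the pairs do not overlap, but they cover counting error only, and each is a single tumour. Myh4 took 6.81% (5.51 to 8.4) of fast heavy chain reads in letrozole + anti-PD-1 2 and 0.485% to 1.79% in the letrozole tumours. The embryonic and neonatal heavy chains Myh3 and Myh8, which are not members, measured 24.98 and 23.3 in letrozole 4 and 16.5 and 21.4 in letrozole + anti-PD-1 2, and 0 and 4.39 in letrozole 1. They took 8.64% (6.75 to 11.0) of fast and developmental heavy chain reads in letrozole 4, against 0.483% (0.222 to 1.05) in letrozole 1. Myh1, Myh2 and Myh4 share 9.68% to 17.0% of their 75-base stretches with each other or Myh8, so part of their reads could be assigned either way.

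**Figure D3:**
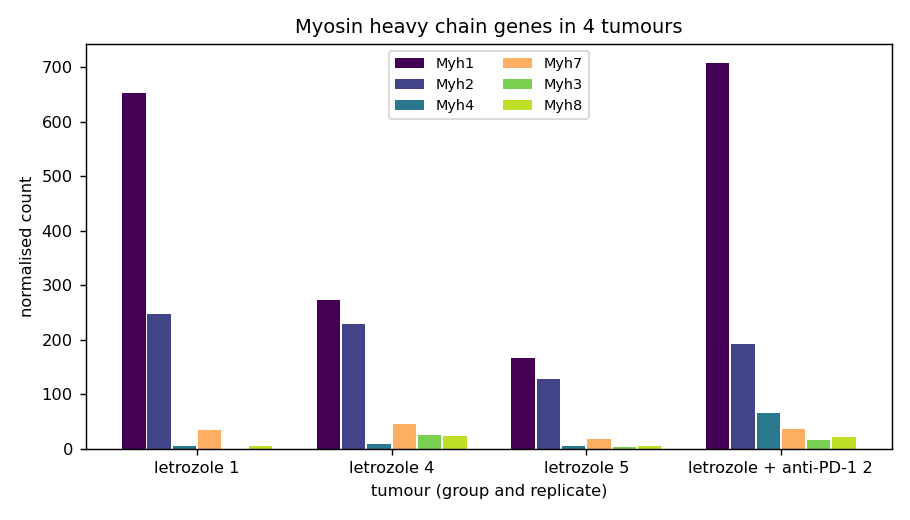
Normalised counts of 6 myosin heavy chain genes in the 4 tumours with the highest muscle levels. Bars are single tumours without replicates and start at 0. Myh1 exceeds Myh2 by more in letrozole 1 and letrozole + anti-PD-1 2 than in letrozole 4 and 5, and Myh4 is visible in letrozole + anti-PD-1 2 at 65.8.

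The myosin light chains and binding proteins divided in the same way between restricted and widespread genes. Myl1, a fast light chain, measured 67.3 in letrozole 1, 79.9 in letrozole 4, 50.1 in letrozole 5 and 74.1 in letrozole + anti-PD-1 2, against 0 to 21.2 elsewhere, with its highest other value in anti-PD-1 1. A pseudogene, Mylf-ps, shares 16.6% of its 75-base stretches. Mylpf, the fast regulatory light chain, measured 10.99, 20.4, 9.36, 21.4 and 17.3 in vehicle tumours 1 to 5, 57.2, 15.5, 27.6, 7.52 and 8.203 in the anti-PD-1 tumours, 62.9, 19.8, 7.66, 24.1 and 63.9 in the letrozole tumours and 6.96, 105, 4.64, 2.91 and 13.2 in the letrozole + anti-PD-1 tumours. It was therefore present in every tumour, and letrozole 4 was no higher than anti-PD-1 3. Myl2, the slow and cardiac regulatory light chain, stayed at 0 in 16 tumours and reached 8.49 at most. Mylk2, the kinase of fast regulatory light chains, measured 19.01, 8.33, 3.45 and 26.3 in the same 4 tumours and at most 1.46 in letrozole + anti-PD-1 4 among the others.

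Mybpc1, the slow-type myosin-binding protein C, had one of the cleanest separations. It measured 198 in letrozole 1, 119.9 in letrozole 4, 75.95 in letrozole 5 and 190.1 in letrozole + anti-PD-1 2, and 0 to 4.24 elsewhere. Its fast counterpart Mybpc2 did not follow it, with 60.4, 6.81, 28.1, 40.4 and 73.3 in vehicle tumours 1 to 5, 46.6, 35.7, 22.1, 23.8 and 21.9 in the anti-PD-1 tumours, 74.6, 24.4, 285, 29.1 and 44.9 in the letrozole tumours and 9.27, 64.2, 32.5, 54.6 and 50.95 in the letrozole + anti-PD-1 tumours. The highest Mybpc2 value by far was in letrozole 3, a tumour with 0 for Myh1, Myh2 and Acta1.

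In the thin filament, Acta1, the skeletal actin, measured 1.83, 0, 0, 0 and 0.788 in vehicle tumours 1 to 5, 63.5, 0, 20.7, 5.01 and 0.684 in the anti-PD-1 tumours, 424, 0, 0, 361 and 396 in the letrozole tumours and 0, 675, 12.4, 0 and 0 in the letrozole + anti-PD-1 tumours. The 4 muscle-rich tumours held 361 to 675, and the next highest value was in anti-PD-1 1. Neb, whose giant product nebulin runs along the actin filament, measured 4.58, 0, 29.96, 33.3 and 13.4 in vehicle tumours 1 to 5, 4.24, 7.75, 30.4, 40.1 and 23.2 in the anti-PD-1 tumours, 584, 10.8, 6.71, 396 and 198 in the letrozole tumours and 24.3, 506, 40.2, 10.2 and 25.5 in the letrozole + anti-PD-1 tumours. It was present at a low level in 19 of 20 tumours and at least 198 in the same 4.

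The fast troponins were less restricted. Tnnt3, fast troponin T, measured 126 in letrozole 1, 60.8 in letrozole 4, 56.96 in letrozole 5 and 112 in letrozole + anti-PD-1 2, against 0 to 38.3 elsewhere. Tnni2, fast troponin I, measured 5.49, 6.81, 0, 19.03 and 19.7 in vehicle tumours 1 to 5, 4.24, 1.55, 37.3, 17.5 and 16.4 in the anti-PD-1 tumours, 36.6, 7.22, 0.958, 32.5 and 37.1 in the letrozole tumours and 19.7, 110.3, 9.28, 0 and 6.605 in the letrozole + anti-PD-1 tumours. Letrozole + anti-PD-1 2 was the only tumour above 100, and anti-PD-1 3 was as high as letrozole 1, 4 and 5. Tnnc2, fast troponin C, measured 24.1, 19.99, 14.7 and 8.23 in the 4 tumours and 0 to 12.8 elsewhere, but 84.6% of its exon bases overlap Ube2c on the opposite strand.

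The slow troponins did not set the 4 tumours apart. Tnnc1, the troponin C of slow and heart muscle, measured 5.85 in letrozole 1, 9.16 in letrozole 4, 6.905 in letrozole 5 and 2.47 in letrozole + anti-PD-1 2, and 4.64 to 27.4 elsewhere, with the highest value in vehicle 4. Tnni1 measured 0, 2.498, 6.905 and 11.5 and 0 to 15.2, and Tnnt1 5.85, 0, 8.63 and 0 and 0 to 4.79, in the same order, so that letrozole 5 and 1 had the highest Tnnt1 values and letrozole 4 held none. Letrozole + anti-PD-1 2, the tumour with the most Myh1, held the lowest Tnnc1 value of all 20. Slow-fibre genes outside the set differed in level. The slow light chain Myl3 was at most 2.47, whereas the slow and cardiac calcium pump Atp2a2, which many other cell types also use, ran from 12539 to 19767 over the 20 tumours. The mean of the 10 slow-fibre genes listed, as log2(normalised count + 1), was 3.66, 4.09, 4.41 and 4.42 in letrozole 1, 4 and 5 and letrozole + anti-PD-1 2, above the 2.42 to 3.57 of the others. Only Mybpc1 of these 10 had the same 4 tumours highest, against 8 of 14 fast-fibre genes (both lists include members).

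Titin was the most abundant member after Des by total normalised count, and its transcript is also the longest. Ttn, the spring that spans the sarcomere from Z disc to its middle, measured 17.4, 7.94, 65.5, 5.95 and 45.7 in vehicle tumours 1 to 5, 72.01, 40.3, 73.2, 46.3 and 29.4 in the anti-PD-1 tumours, 3401, 10.8, 21.1, 1514 and 729 in the letrozole tumours and 13.9, 1518, 67.3, 21.1 and 50.95 in the letrozole + anti-PD-1 tumours. The 4 highest values were 729 or more and the others 73.2 or less. Per kilobase, Ttn stood at 31.8, 14.2, 6.83 and 14.2 in letrozole 1, 4, 5 and letrozole + anti-PD-1 2, and Acta1 at 293, 249, 274 and 466.6. Ttn thus varied more between these tumours than Acta1. It took 88.9% (Wilson 95% interval 88.0 to 89.7), 80.8% (79.1 to 82.3), 64.8% (62.2 to 67.3) and 69.2% (67.5 to 71.0) of the reads on both genes, in that order.

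The Z-disc cross-linker Actn2 measured 0 in each of vehicle tumours 1 to 5, 4.24, 0, 0, 0 and 0 in the anti-PD-1 tumours, 109.7, 0.902, 0, 68.3 and 92.4 in the letrozole tumours and 0, 129, 0, 0 and 0 in the letrozole + anti-PD-1 tumours. Outside the 4 tumours it was above 0 in only anti-PD-1 1 and letrozole 2. Actn3, the alpha-actinin of fast fibres, measured 68.00 in letrozole 1, 71.6 in letrozole 4, 27.6 in letrozole 5 and 37.8 in letrozole + anti-PD-1 2, against 0 to 22.7 elsewhere, with the highest of these in vehicle 2. Myot, which encodes the Z-disc protein myotilin, measured 8.77, 24.98, 8.63 and 27.98 in the 4 tumours and was at 0 in all others but letrozole + anti-PD-1 1, at 2.32. Myoz1, which binds calcineurin at the Z disc of fast fibres, measured 19.01, 23.3, 6.905 and 11.5, and at most 2.27 in vehicle 2 elsewhere. Its slow-fibre relative Myoz2, not a member, was at 0, 18.3, 41.4 and 13.2 and at 0 in the other 16. Smpx, a small muscle protein, never reached 10.

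Des, the intermediate filament of all muscle types, had a different distribution. It measured 423, 836, 793, 429 and 705 in vehicle tumours 1 to 5, 2079.9, 453, 942, 445 and 423 in the anti-PD-1 tumours, 1435, 812, 1172, 1642 and 4034 in the letrozole tumours and 582, 2087, 628, 625 and 893 in the letrozole + anti-PD-1 tumours. The highest value was in letrozole 5, and anti-PD-1 1 was level with letrozole + anti-PD-1 2, although its sarcomere genes were far lower.

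Genes of calcium release and uptake followed the filaments. Atp2a1, the pump that returns calcium to the store in fast fibres, measured 12.8, 7.94, 29.02, 15.5 and 23.6 in vehicle tumours 1 to 5, 52.9, 6.202, 28.99, 18.8 and 16.4 in the anti-PD-1 tumours, 333, 6.32, 30.7, 234 and 122 in the letrozole tumours and 42.9, 508, 17.8, 4.37 and 40.6 in the letrozole + anti-PD-1 tumours. Ryr1, the release channel of that store, measured 9.16, 47.7, 52.4, 34.5 and 40.2 in vehicle tumours 1 to 5, 50.8, 10.9, 27.6, 52.6 and 43.1 in the anti-PD-1 tumours, 244, 51.4, 14.4, 203 and 131 in the letrozole tumours and 42.9, 232, 40.2, 21.8 and 39.6 in the letrozole + anti-PD-1 tumours. Both were detected in every tumour, and both had letrozole 1, 4 and 5 and letrozole + anti-PD-1 2 as their 4 highest. Atp2a1 overlaps Rabep2 on the opposite strand over 21.9% of its exon bases.

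Casq1, which binds calcium within the store, measured 33.6 in letrozole 1, 22.5 in letrozole 4, 31.9 in letrozole 5 and 46.9 in letrozole + anti-PD-1 2, and 0 to 24.5 elsewhere, with letrozole + anti-PD-1 5 above letrozole 4. Pvalb, the calcium buffer of fast fibres, measured 30.7, 8.33, 28.5 and 40.3 in the same order and was 0 in all others except anti-PD-1 5 at 1.37. Trdn, which links the release channel to Casq1, measured 17.5, 12.5, 8.63 and 29.6 and at most 2.27 in vehicle 2 elsewhere. Cacna1s, the voltage sensor, measured 43.1, 6.66, 24.2 and 25.5. Vehicle 3, at 13.1, exceeded letrozole 4.

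The energy genes were mostly present in every tumour. Ckm, the muscle creatine kinase, measured 9.16, 4.54, 5.62, 38.1 and 7.09 in vehicle tumours 1 to 5, 16.9, 0, 1.38, 6.26 and 4.79 in the anti-PD-1 tumours, 113, 4.51, 19.2, 69.95 and 89.8 in the letrozole tumours and 12.8, 149.7, 27.1, 18.9 and 3.77 in the letrozole + anti-PD-1 tumours. The 4 muscle-rich tumours lay at 69.95 or above and the others at 38.1 or below. Pygm, which releases glucose units from glycogen, measured 108 in letrozole 1, 32.5 in letrozole 4, 45.7 in letrozole 5 and 83.9 in letrozole + anti-PD-1 2, and 3.09 to 30.7 elsewhere.

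Mb, the oxygen-binding myoglobin, measured 312, 390.3, 245, 324 and 463 in vehicle tumours 1 to 5, 241, 395, 472, 283 and 281 in the anti-PD-1 tumours, 488, 236, 472, 468 and 472 in the letrozole tumours and 194, 699, 94.4, 333 and 366 in the letrozole + anti-PD-1 tumours. Letrozole + anti-PD-1 2 was highest, but letrozole 1, 4 and 5 were matched by letrozole 3 and anti-PD-1 3. Of Mb's exon bases 45.0% overlap Apol6 and Gm49540 on the opposite strand. Eno3, the muscle enolase, measured 135 in letrozole 1, 64.1 in letrozole 4, 81.1 in letrozole 5 and 187 in letrozole + anti-PD-1 2 and 33.02 to 133 elsewhere, so letrozole 4 and 5 lay below all vehicle tumours. Pgam2, the muscle phosphoglycerate mutase, measured 53.4 in letrozole 1, 40.8 in letrozole 4, 39.7 in letrozole 5 and 98.7 in letrozole + anti-PD-1 2 and 4.24 to 38.8 elsewhere. Ckmt2, the mitochondrial creatine kinase, was highest in anti-PD-1 1 at 19.1, followed by letrozole 2 at 17.1.

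Across the 37 members, the profiles of the 4 tumours resembled one another, with Pearson's r of 0.90 to 0.93 across genes on the log2 scale for their 6 pairs. Pairs of one such tumour with another library gave 0.34 to 0.69, and the 120 pairs without any gave 0.58 to 0.94. The 4 tumours were picked out by their levels of these same genes, so their likeness carries no test. Genes are not independent replicates, and Des and Mb are high in every profile. Anti-PD-1 1 held a partial set: Acta1 63.5, Mylpf 57.2, Atp2a1 52.9, Myh1 38.1 and Myl1 21.2, with 0 for Myh2, Myh7 and Pvalb. Outside the set it had 59.3 of the titin cap gene Tcap, 42.4 of Xirp2 and 55.1 of the muscle caveolin Cav3. Its Cav3 was higher than in letrozole 1, at 2.92, or letrozole + anti-PD-1 2, at 0.

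Other muscle genes behaved like the members in part. Of 35 further sarcomere genes, 12 had the same 4 tumours highest. Of 20 further calcium and excitability genes, 20 further muscle energy genes and 9 genes of the neuromuscular junction, 0 did. The 12 genes whose values over the 20 tumours were most like the mean of the tested members, by Pearson's r on the log2 scale, included Xirp2, Nrap and Cmya5 among known muscle genes. Because the tumours fall into separate clusters, no coefficient is given. Xirp2, an actin-binding repeat protein, measured 380.2 in letrozole 1, 244 in letrozole 4, 170.0 in letrozole 5 and 182 in letrozole + anti-PD-1 2. Nrap, an organiser of young myofibrils, measured 72.4 in letrozole 1, 91.6 in letrozole 4, 55.2 in letrozole 5 and 180.2 in letrozole + anti-PD-1 2. The list also held Tcap, Fhl1, Pgm5 and A930016O22Rik, which lies antisense to Ckm, and Prr13, Tbc1d10c, Oas1f and A630019I02Rik.

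Regulators of muscle development followed the set little. Among 12 genes of myogenic factors and satellite cells, 0 had the 4 muscle-rich tumours highest. Their mean log2(normalised count + 1) was 2.64, 2.33 and 2.56 in letrozole 1, 4 and 5, within the 1.73 to 3.23 of the other tumours. In letrozole + anti-PD-1 2 it was 3.30, the highest value. Pax7, the satellite cell factor, was above 0 in every tumour, from 11.2 in letrozole 5 to 5167 in anti-PD-1 3. Myod1 was at most 4.996, in letrozole 4, and Myog at most 13.2, in letrozole + anti-PD-1 2. Of 10 heart muscle genes, 0 had the 4 muscle-rich tumours highest. Their mean log2(normalised count + 1) was 3.11 in letrozole 1, 2.78 in letrozole 4, 3.00 in letrozole 5 and 3.17 in letrozole + anti-PD-1 2, within the 1.96 to 3.37 of the other tumours. In those 4 tumours the cardiac myosin Myh6 was at most 4.39 and the atrial light chain Myl7 was at 0, while the cardiac troponins Tnnt2 and Tnni3 ran from 18.3 to 27.8 and from 10.8 to 88.5. Nppa, an atrial hormone gene, stood at 297 in anti-PD-1 1 and at most 9.303 elsewhere.

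Markers of other tissues moved with the muscle genes in some of the 4 tumours. The mean of 12 skin genes, as log2(normalised count + 1), was 9.09 in letrozole 5 and 6.47 in letrozole 4, against 3.33 in letrozole 1, 4.60 in letrozole + anti-PD-1 2 and 2.79 to 4.23 in the other 16 tumours. The epidermal keratin Krt1 measured 6220.3 in letrozole 5 and 286 in letrozole 4, but 15.4 in letrozole 1 and 3.29 in letrozole + anti-PD-1 2. Filaggrin, Flg, was 0 in the last 2. Summed over the list, the skin genes ranged from 6156 to 29235 in vehicle, 3725 to 43287 in anti-PD-1, 6252 to 33702 in letrozole and 8772 to 26410 in letrozole + anti-PD-1 tumours, and except in letrozole 5 most of it was Krt15. None of the 12 skin genes had the same 4 tumours highest.

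Of 10 smooth muscle genes, all 10 were tested and 0 had those 4 tumours highest. This list includes the member Des, at 4034 in letrozole 5. It shares Acta2, Cnn1 and Mylk with the list of myoepithelium and basal cells, so the sums are not separate. The sum of the smooth muscle genes ranged from 3004 to 7709 in vehicle and 3019 to 6636 in anti-PD-1 tumours. It ranged from 4227 to 20505 in letrozole and 3806 to 8936 in letrozole + anti-PD-1 tumours, with letrozole 5 the highest. The smooth muscle myosin Myh11 measured 2989.8 in letrozole 5, 759 in letrozole + anti-PD-1 2, 653 in letrozole 4 and 266 in letrozole 1, and 545 in letrozole 2, which had little skeletal muscle RNA. The summed fibroblast genes were 27340, 36239, 69594 and 42011 in letrozole 1, 4 and 5 and letrozole + anti-PD-1 2, and reached 62409 in vehicle 3, which had 0 for Myh1. The mean of 8 tendon and fascia genes was 4.99, 4.5, 5.65 and 4.91 in the same order, as log2(normalised count + 1), against 1.95 to 4.96 in the others. The 10 genes of myoepithelium and basal cells summed to 2868, 7590, 21105 and 4366 in that order, against 1279 to 5407 in the others. For letrozole against vehicle, 7 of these 10 were higher at an unadjusted p under 0.05 by limma, against 7.35% of all tested genes. At the adjusted threshold 0 passed, against 0.958% of all tested genes, and the median difference was 2.17. In letrozole + anti-PD-1 against anti-PD-1, 0 of the 10 were higher at an unadjusted p under 0.05, against 6.78%, with a median of 0.4. The part of skin, smooth muscle, fibroblasts, tendon and myoepithelium in the muscle values was not tested.

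**Figure D4:**
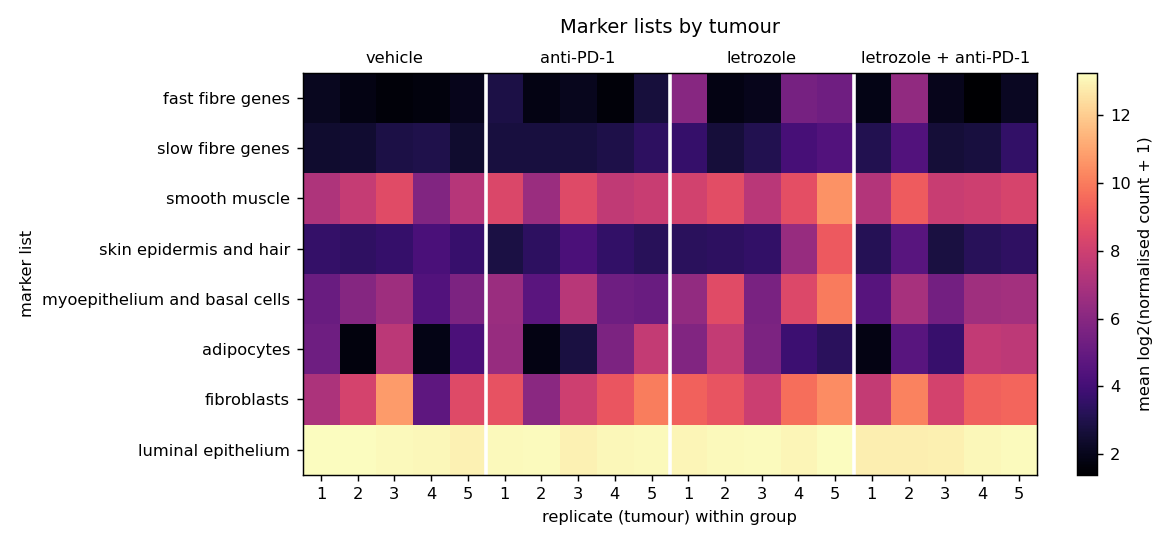
Mean log2(normalised count + 1) of 8 marker lists, in rows, for 20 tumours, in columns by group and replicate. Fast fibre genes are bright in letrozole 1, 4 and 5 and letrozole + anti-PD-1 2 (5.29 to 6.27, others 1.40 to 2.90), while skin genes are bright in letrozole 4 and 5 (6.47 and 9.09).

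The design asks whether letrozole or anti-PD-1 alters transcription, and none of the 24 members tested passed the threshold by limma in any comparison. Of the 37 members, 24 passed the filter of 10 normalised counts in at least 5 libraries and were tested, and 13 did not, among them Mybpc1, Actn2, Pvalb, Myot and Trdn, which reached 10 in at most 4 tumours. Differences are on the scale of log2(normalised count + 1), with SE, n = 5 per group and adjusted p over 19840 genes. For letrozole against vehicle, 0 of 24 members were called, where 0.958% of all tested genes were (190 genes). At an unadjusted p under 0.05, 11 of 24 were higher and 0 lower, against 7.35% of all genes higher. That count fell to 2 of 20 tested members without letrozole 1, where 1326 of 19700 genes were higher. It fell to 4 of 20 without letrozole 4 or letrozole 5, where 1201 of 19738 and 1043 of 19697 genes were higher. The number of all genes called rose from 190 to 814 (4.14%) without vehicle 3. The median difference over the 24 was 1.80, against 0.03 over all tested genes. Myh1, Myh2 and Myl1 reached 10 in just 5 libraries, among them the 4 muscle-rich tumours, and were at or near 0 in vehicle. They entered the test through tumours that are mostly of the letrozole group. The counts of higher members and the medians are therefore partly set by the filter.

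Myl1 had the lowest adjusted p, with a difference of 4.34 (SE 1.14, adjusted p = 0.0753). Acta1 differed by 4.70 (SE 1.94), Myh1 by 4.67 (SE 1.93) and Myh2 by 4.56 (SE 1.64), with adjusted p from 0.204 to 0.277. Ttn differed by 3.62 (SE 1.35, 95% interval 0.79 to 6.44, adjusted p = 0.227). Myh7 differed by 2.71 (SE 0.89, adjusted p = 0.16), and Des by 1.35 (SE 0.45, adjusted p = 0.173). With single libraries left out, Ttn ran from 2.67 (without letrozole 1) to 4.72 (without letrozole 2), Acta1 from 3.81 (without letrozole 1) to 6.0 (without letrozole 2 or 3), and Neb, at 3.12, from 2.3 (without vehicle 2) to 3.98 (without letrozole 3). Within the letrozole group, tumours 2 and 3 held 0 for Acta1, Myh1 and Myh2. Only Myh7 and Myl1 had all 5 letrozole values above all 5 vehicle values, 2 of 24 members, against 1.71% of all genes. For Myl1 this rests on 4 and 5 reads in letrozole 2 and 3, against 1 read in vehicle 4. Myl1 entered the test mostly through letrozole tumours, so this count too is partly set by the filter. Eno3, Pgam2, Tnnc1 and Mb differed by −0.24 to 0.29.

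By role, the median differences were 3.53 for 6 tested thick filament genes, 1.58 for 6 thin filament genes, 2.20 for 3 Z-disc genes, 1.92 for 3 calcium genes and 0.57 for 6 energy genes. The count of calls depended on the tool. EdgeR on recovered reads called 0 members and 0.852% of all genes. DESeq2 called 3 members (Ttn, Acta1 and Neb) of the 10 for which it gave an adjusted p, and 4.32% of such genes. Without vehicle 3 and anti-PD-1 1, limma called 2 (Des and Myh7) of 21, and 5.79% of all genes.

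**Figure D5:**
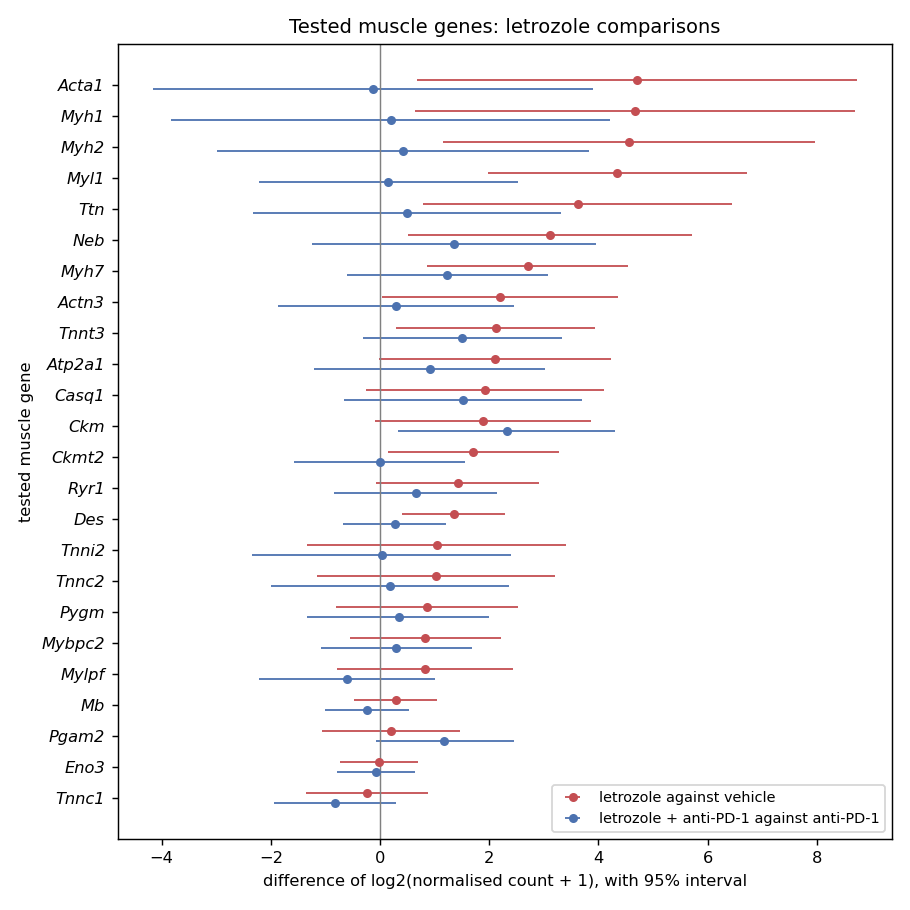
Differences of log2(normalised count + 1) with 95% intervals from limma for the 24 tested skeletal muscle genes, 5 tumours per group. Red points compare letrozole with vehicle and blue points letrozole + anti-PD-1 with anti-PD-1. The largest red difference is that of Acta1 at 4.70, where the blue one is −0.13, and none of the 24 in either comparison passed the adjusted threshold.

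In mice given the antibody, letrozole + anti-PD-1 against anti-PD-1 alone again gave 0 calls among 24 members, against 1.07% of all tested genes. One member, Ckm, was higher at an unadjusted p under 0.05, against 6.78% of all genes, and the median difference was 0.30. Myh1 differed by 0.20 (SE 1.93) and Acta1 by −0.13 (SE 1.94). Their 95% intervals ran from −3.83 to 4.22 and from −4.16 to 3.90, which includes large differences in either direction. Letrozole + anti-PD-1 2 carried the high values, and without it the median over 21 tested members was −0.09. EdgeR called 0 members, against 0.877% of all genes, and DESeq2 1 of 16, Ckm, against 3.28%.

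Averaged over both antibody arms, letrozole gave 0 calls among 24 members, against 7% of all tested genes. At an unadjusted p under 0.05, 10 were higher, against 12.3% of all genes, and the median difference was 1.14. The limit set by the filter applies here too. Myh7 had the lowest adjusted p (difference 1.97, adjusted p = 0.0615). EdgeR and DESeq2 each called 9 members here, DESeq2 among 19 with an adjusted p. They called 6.57% and 11.5% of all genes. Both sets held Ttn, Acta1, Myh2, Myl1, Neb, Tnnt3, Atp2a1 and Ckm. Without anti-PD-1 1 limma called 2 (Ckm and Des) of 21, where 7.44% of all genes were called. Without anti-PD-1 5 or vehicle 4 it also called 2, of 24, where 7.55% and 5.68% were.

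Some genes of the further muscle lists were called by limma, where 7% of all tested genes were called averaged over both arms. Averaged over both arms, 2 of 17 tested further sarcomere genes were higher: the small heat shock protein gene Cryab by 0.67 (SE 0.20, adjusted p = 0.0485) and the tropomyosin gene Tpm1 by 0.36 (SE 0.09, adjusted p = 0.016). Tpm1 was present in every tumour, at 831 to 1703 per kilobase of transcript. Of 14 tested further energy genes, 2 were higher and 1 lower, against the same 7%. The adenylosuccinate synthase gene Adssl1 was higher by 0.68 (SE 0.18, adjusted p = 0.0239) and the glucose transporter gene Slc2a4 by 2.37 (SE 0.70, adjusted p = 0.0451). Amd1, for a step of polyamine synthesis, fell by 0.88 (SE 0.13, adjusted p = 0.000285), and it was also lower in letrozole against vehicle (adjusted p = 0.0416) and in letrozole + anti-PD-1 against anti-PD-1 (adjusted p = 0.0105).

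Anti-PD-1 alone against vehicle gave 0 calls among members and 0% among all genes by limma. At an unadjusted p under 0.05, 0 members were higher, against 1.35% of all genes, and the median difference was 0.19. DESeq2 called 1 member, Myh2, against 0.0253% of all genes. Myh2 was 0 in all 5 vehicle tumours and above 0 in anti-PD-1 3 and 5, at 11.04 and 2.73. Letrozole + anti-PD-1 against letrozole gave 0 calls (0% of all genes), and 2 members were lower at an unadjusted p under 0.05, against 1.56% of all genes, with a median of −0.73. Myl1 differed by −2.76 (SE 1.14, adjusted p = 1.0). The interaction of letrozole with anti-PD-1 gave 0 calls (0% of all genes), with a median of −1.04 and 1 member, Myl1, lower at an unadjusted p under 0.05 (difference −4.19, SE 1.61), against 0.887% of all genes. A letrozole effect that differs between the antibody arms was therefore not shown for any member. These comparisons share groups and are not independent of one another.

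Fewer genes outside the set were called when the muscle level entered the fit. When the mean of the tested members was added to the fit as a covariate, the calls outside the set for letrozole against vehicle went from 190 to 59 of 19816 genes. For letrozole averaged over both arms they went from 1389 to 553, and for letrozole + anti-PD-1 against anti-PD-1 from 213 to 170. The covariate is measured from the same libraries and is itself higher in 3 letrozole tumours, so what it removes was not tested.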

How the data were processed

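The authors deposited one table of 127442 Ensembl transcripts by 20 libraries whose values are signal: counts of reads scaled library by library with a size factor. STAR 2.7.10a, DESeq2 and the build GRCm39 (mm39) are named in the submitters' processing notes. The counter, its use of strand and the DESeq2 version have no entry there. In each library the values are whole multiples of 1 step, so that whole reads could be recovered for 100% of values (tolerance 0.001). GENCODE vM21 (on GRCm38) named 93.3% of transcripts, and overlaps and shared 75-base stretches were computed from it, so no gene coordinates are given beyond RefSeq's promoters. The planned design assumed a table of genes. The transcript with the highest 20-library total was therefore used, and 49 shared symbols were dropped.

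The 19840 genes that reached 10 in 5 or more libraries entered limma 3.58.1 with a trend, on log2(value + 1). One fit of 4 group means left 16 residual degrees of freedom. Its two-sided p-values received the Benjamini-Hochberg adjustment, with a threshold of 0.05. Adjusted p-values are from limma unless edgeR 4.0.16 or DESeq2 1.42.0, run on recovered reads, is named. The fit was tested on simulated data. Alternatives were other pseudocounts, filters, scalings, transcript choices and left-out libraries.

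The members and gene lists were chosen with earlier results of these data known. All 37 members are accounted for, with up to 5 a role, by total, described closely. Genes outside the set come from lists or from the 12 most like the members' mean, and Cav3, Krt8, Mybpc1 among slow-fibre genes and others were named after their values were seen. One gene that the likeness rule takes is not reported here.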

Additional observations from a re-analysis of the deposited data

Results flagged for a closer look

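Within each group of 5 tumours, the highest or lowest value was compared with its nearest neighbour on the log2 scale. This gave 104 combinations of a group with a named member or with the members' sum. Some of these could not be checked because all 5 values were 0, such as Myh2 in vehicle. In 15 of the 104 a tumour lay far from the others of its group, and chance alone flags about 1 in 20 groups of continuous values. That rate does not hold for 7 of the 15, where the other 4 tumours were tied at 0 and any value above 0 stands apart. Letrozole + anti-PD-1 2 stood apart upwards in 7: Myh1 at 708, Myh2 at 192.5, Mybpc1 at 190.1, Actn2 at 129, Ryr1 at 232, Pvalb at 40.3 and the sum of members other than Des and Mb at 6025. In that group the muscle level is thus carried by 1 tumour. Letrozole 1, 4 and 5 are not flagged, because they are 3 of 5 in their group.

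Anti-PD-1 1 stood apart in the summed level, at 639.6, and in Actn2, at 4.24. Several flags concern values below the limit of 3 reads in groups otherwise at 0. They are this Actn2 value, Myh1 at 1.83 in vehicle 1 and Pvalb at 1.37 in anti-PD-1 5, each resting on 2 reads. Cacna1s stood at 13.1 in vehicle 3. Low values were Ryr1 at 9.16 in vehicle 1, Mb at 236 in letrozole 2 and Pgam2 at 7.66 in letrozole 3.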

How the results depend on the processing

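For letrozole against vehicle, where limma called 0 of 24 members, DESeq2 on recovered reads called 3, leaving out vehicle 3 and anti-PD-1 1 (an alternative chosen after seeing the data) gave 2, and 1 member, Myl1, was called with only the groups of the contrast, with the sum over transcripts and with the transcript of highest median. Of all genes, 4.32%, 5.79%, 0.877%, 0.771% and 0.963% were called in these 5 settings. DESeq2 called 1 member in each of letrozole + anti-PD-1 against anti-PD-1 (3.28% of all genes) and anti-PD-1 against vehicle (0.0253%). For letrozole averaged over both arms the count went from 0 to 9 by DESeq2 and by edgeR, 2 without vehicle 3 and anti-PD-1 1, 2 with the sum over transcripts, 1 with the transcript of highest median, and 0 to 2 when single libraries were left out. Of all genes, 11.5%, 6.57%, 12.6%, 6.32% and 7.03% were called in the first 5 of these, and 4.76% to 11.9% with single libraries left out. The cause of these differences was not tested. With the muscle mean as a covariate, calls outside the set fell to 59 for letrozole against vehicle and 553 averaged over both arms.

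Near-zero differences changed sign. Averaged over both arms, Mb was −0.02 with libraries centred on their median and −0.09 without vehicle 3 and anti-PD-1 1, and ranged from −0.15 to 0.21 with single libraries left out. Mylpf ranged from −0.28 to 0.32 in the same way. Eno3 was 0.02 by edgeR and 0.01 by DESeq2 for letrozole against vehicle, and 0.08 by both averaged over both arms, and ranged from −0.16 to 0.11 and from −0.18 to 0.13 with single libraries left out. Tnnc1 ranged from −0.48 to 0.1 for letrozole against vehicle. Of 1254 alternative values of single genes, 1197 kept direction and side of the threshold.

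With the replicate number as a block, 0 members were called in each of the 6 comparisons. The labels do not say that the numbers pair the tumours. Deviations of same-numbered tumours correlated at −0.34 to 0.20 and those of other pairs at −0.38 to 0.43. A lack of correlation cannot settle whether the numbers pair tumours. Depth limits the lowest members, since 3 reads are worth 2.05 to 6.35 normalised counts.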
